A study of Mus musculus with 14 samples.

Results

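The BCL2 family decides whether a cell commits to death through its mitochondria, and 10 of its genes were followed here in macrophages of the inflamed central nervous system. They were chosen by name, as the rows of the expression table for Bcl2a1a, Bcl2a1b, Bcl2a1d, Mcl1, Bcl2l1, Bcl2, Bax, Bcl2l11, Bbc3 and Pmaip1, which are 10 of the 19940 genes listed. All 10 passed the filter on low values that left 12096 genes for testing. The tested macrophages came from mCAT donors (CD45.2, CCR2creERT2/+ mcat lsl/wt), in which Cre, driven from Ccr2 and active only with tamoxifen, switches on a catalase directed to mitochondria, an enzyme that breaks down hydrogen peroxide. They were compared with macrophages of wt donors (CD45.1). Both kinds of donor marrow were given in equal numbers to lethally irradiated hosts, tamoxifen is listed for all samples, and monocyte-derived macrophages (MdMs) were sorted from the central nervous system by donor marker at peak disease in experimental autoimmune encephalomyelitis (EAE), the mouse counterpart of multiple sclerosis. There were 7 mCAT and 7 wt libraries, made with Smart-seq2, which copies whole transcripts and does not record their strand. The catalase depends on Ccr2 having been active while tamoxifen was present. The species of the added catalase, its level, the strain and age of the mice, and whether each library came from its own host are not known from the labels.

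Proteins of the family fall into 3 roles. The guardians A1 (encoded by the Bcl2a1 genes), MCL1, BCL-XL (Bcl2l1) and BCL2 hold the death effectors in check at the outer mitochondrial membrane. The effector BAX opens that membrane and releases cytochrome c, which starts the caspase cascade. The BH3-only proteins BIM (Bcl2l11), PUMA (Bbc3) and NOXA (Pmaip1) sense stress or loss of survival signals and bind the guardians, BIM and PUMA binding all of them and NOXA mainly MCL1 and A1. In myeloid cells MCL1 is short-lived and replaced constantly, and A1 is induced by NF-kappaB signalling; the mouse genome carries several near-identical copies of its gene, where humans have a single one.

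The 3 Bcl2a1 genes are shown first, because how far their values can be told apart depends on their sequences. The following lines give the first 90 bases of the coding sequence of each (GENCODE M21 transcripts, build GRCm38), with the 6 positions at which the copies differ in capitals. 
Bcl2a1a, chr9:88957051-88957140, plus strand: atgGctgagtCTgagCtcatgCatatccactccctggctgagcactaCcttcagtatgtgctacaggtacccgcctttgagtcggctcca
Bcl2a1b, chr9:89199360-89199449, plus strand: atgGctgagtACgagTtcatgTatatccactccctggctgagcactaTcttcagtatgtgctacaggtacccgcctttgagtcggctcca
Bcl2a1d, chr9:88731630-88731719, minus strand: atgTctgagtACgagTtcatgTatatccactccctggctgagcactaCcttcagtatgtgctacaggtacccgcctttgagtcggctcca
Over all 519 coding bases 12 positions differed among the copies. Bcl2a1a and Bcl2a1b were 97.9% identical, Bcl2a1a and Bcl2a1d 98.7%, and Bcl2a1b and Bcl2a1d 98.8%. Of all windows of 150 bases, the length of a read, 71.8% of those of the Bcl2a1a transcript, 85.8% of those of Bcl2a1b and 69.7% of those of Bcl2a1d had no exact match in the other two. Each of the remaining windows matches another copy exactly, so the division of reads among the 3 genes is partly an estimate of the authors' quantification. A transcript listed as Gm29094 (mean 326 normalised counts) shares 402 bases with Bcl2a1b without a difference, and the value of Bcl2a1b may include reads of it. Bcl2 shares 558 of its 9157 exon bases with D630008O14Rik on the opposite strand, and Bax 192 of 867 with Gm45808 on its own strand. Within those stretches, reads of the overlapping genes cannot be told apart.

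Promoter sequence was taken from RefSeq (GRCm38.p6) for 9 of the 10 genes, as 14 windows of 300 bases that run from 250 before to 50 after an annotated start. Pmaip1 was not among the windows used. The windows of all 3 Bcl2a1 genes, and of no other member, held the letters GAGGAAGT of the motif of PU.1, the factor that defines the myeloid lineage. Capitals mark that motif in the 100 bases around it, and the stretches of Bcl2a1a and Bcl2a1b are identical.
Bcl2a1a, chr9:88956771-88956870, plus strand: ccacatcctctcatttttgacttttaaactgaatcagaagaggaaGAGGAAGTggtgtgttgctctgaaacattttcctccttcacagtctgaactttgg
Bcl2a1b, chr9:89199080-89199179, plus strand: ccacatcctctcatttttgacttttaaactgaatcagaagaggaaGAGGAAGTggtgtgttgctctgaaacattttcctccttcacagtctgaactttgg
Bcl2a1d, chr9:88731900-88731999, minus strand: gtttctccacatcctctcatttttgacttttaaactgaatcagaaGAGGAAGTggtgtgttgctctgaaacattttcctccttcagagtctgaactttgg
On either strand 3.20% of all 32817 promoter windows held it. The letters GTAAACA of the FOXO motif, read by factors that turn on BH3-only genes when survival signals are lost, were found in 3.65% of all windows. Among the members they stood in 1 window each of Bcl2l11 and Bbc3, again in capitals, where Bbc3 carries the motif in reverse.
Bcl2l11, chr2:128125788-128125887, plus strand: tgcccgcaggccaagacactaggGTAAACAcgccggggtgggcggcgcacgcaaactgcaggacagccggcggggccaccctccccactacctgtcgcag
Bbc3, chr7:16310049-16310148, plus strand: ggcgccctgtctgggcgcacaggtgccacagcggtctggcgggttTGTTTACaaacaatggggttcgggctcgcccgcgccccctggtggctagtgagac
AP-1 letters (TGANTCA, 7.81% of all windows) were found in all 3 Bcl2a1 windows and in no other member, upstream of the PU.1 letters and not overlapping them. The NF-kappaB motif, searched in 1 fixed spelling present in 0.155% of all windows, was found in no member window. A match describes these letters only.

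Depth, in M reads (mega, as in Mb), was estimated at 27.2 to 46.7 for mCAT libraries and at 16.6 to 43.1 for wt ones. Library wt 1 lay farthest from its group, with a median absolute deviation of 0.32 from the wt median over the genes tested, against 0.09 to 0.23 in the other libraries of either genotype. Cat, the mouse catalase gene, averaged 2831 ± 808 normalised counts in mCAT and 2155 ± 626 in wt libraries (SD, n = 7 each) and did not pass the test (limma adjusted p = 0.878). It was higher in mCAT in 6 of 6 pairs. Whether reads of the added catalase are counted under Cat is not known. The markers of macrophages and monocytes were all measured (10 of 10), led by Lyz2 and Ly6c2. Of these markers 7 had log2 differences above 0, and 3 had an unadjusted p under 0.05. With the block 1 passed, Ccr2, the chemokine receptor gene of inflammatory monocytes and the gene that drives Cre in mCAT cells. Ccr2 averaged 8391 ± 2975 in mCAT and 13742 ± 5015 in wt libraries (SD, n = 7 each), the mCAT library being the lower in all pairs. Its log2 difference was -0.68 (limma adjusted p = 0.878), and -0.80 with the block (limma adjusted p = 0.00587). The mCAT donors carry Cre at Ccr2, so for this gene the catalase and the Cre-bearing allele cannot be told apart. The part of the Ccr2 difference in the values of the Bcl2a1 genes was not tested. The library codes join 6 mCAT and 6 wt libraries by a shared stem, and wt 1 and mCAT 3 have no partner; "pairs" below are these 6.

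The 10 genes were present at very different levels, led by Bcl2a1b and Bcl2a1d. Levels between genes are given here as normalised counts per kb of merged exons (GENCODE M21, build GRCm38), a scale used for this order only. Bcl2a1b averaged 32280.1 ± 5846 in mCAT and 41486 ± 6801 in wt libraries (SD, n = 7 each). Bcl2a1d averaged 12537 ± 3217 in mCAT and 16376 ± 4571 in wt. Bcl2a1a followed with 7008 ± 1695 in mCAT and 9683 ± 2611 in wt. Then came Bax (6677 ± 1527 in mCAT, 6799.6 ± 1366 in wt), Mcl1 (2781 ± 605 in mCAT, 3423 ± 1275 in wt), Pmaip1 (2159 ± 465 in mCAT, 1790.1 ± 364 in wt) and Bcl2l1 (1415 ± 331 in mCAT, 1259 ± 456 in wt). Bcl2l11 was lower (241 ± 41.1 in mCAT, 242 ± 79.1 in wt), and Bbc3 (38.3 ± 9.91 in mCAT, 27.4 ± 10.9 in wt) and Bcl2 (17.1 ± 5.89 in mCAT, 33.7 ± 27.7 in wt) were the scarcest. Each gene stood above the next in at least 13 of 14 libraries, except that Bcl2a1a was above Bax in 10 and Bbc3 above Bcl2 in 10, so those neighbours are not ordered beyond their spread. The order rests on the annotated length, and Bcl2 has the longest merged exons (9157 bases).

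**Figure D1:**
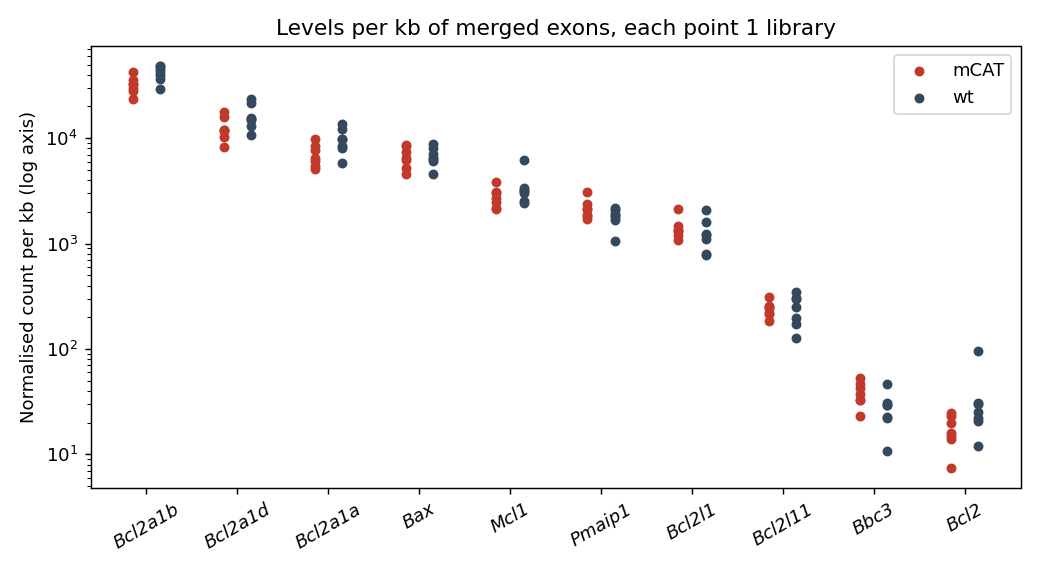
Normalised count per kb of merged exons (log axis) of the 10 genes, ordered by their mean, with mCAT libraries left of wt libraries and each point 1 library. Bcl2a1b lies highest in every library, and Bbc3 and Bcl2 lie lowest and overlap.

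None of the 10 genes passed the test between genotypes, in a data set in which 0.198% of all genes did (24 of 12096, limma with Benjamini-Hochberg adjustment). With the code stem as a block, where 0.322% passed (39 of 12096), none of the 10 passed either, the smallest adjusted p being 0.310, that of Bcl2a1a. Of the 10 log2 differences (mCAT minus wt) 6 lay below 0, those of the 3 Bcl2a1 genes, Mcl1, Bcl2 and Bax, and 4 above it, those of Bcl2l1, Bcl2l11, Bbc3 and Pmaip1. Over all genes tested 6080 lay below 0 and 6016 above it. An unadjusted p under 0.05 was reached by 2 of 10 members, Bcl2a1a and Bcl2a1b, where 5.37% of all genes reached it and 3.03% did so with a lower value in mCAT. With the block it was reached by 4 of 10, the 3 Bcl2a1 genes and Bcl2, where 9.23% did and 4.24% with a lower value in mCAT. Their read division and shared sequence mean that the 3 Bcl2a1 genes are not independent of each other. The mCAT and wt ranges overlapped for all 10 genes, and did not overlap for 0.24% of all genes. Of the members 2 were lower in mCAT in 6 of 6 pairs (2.63% of all genes) and 0 were higher in 6 of 6 (2.74%).

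**Figure D2:**
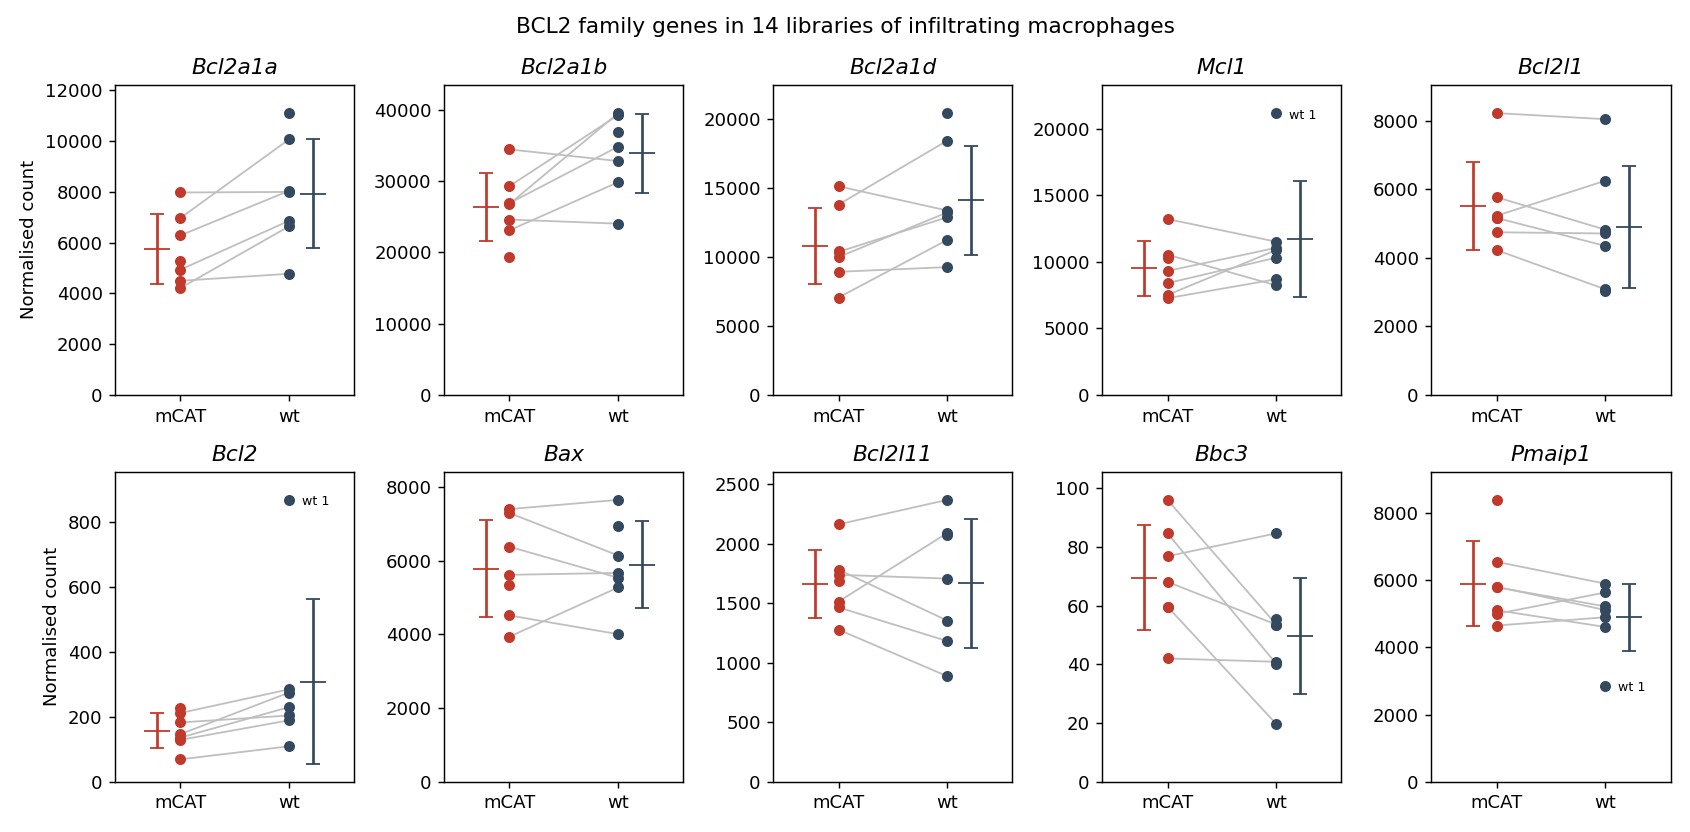
Normalised count (linear axes from 0) of each gene in 7 mCAT libraries, left, and 7 wt libraries, right; grey lines join libraries with a shared code stem, and the bars beside the points are mean and SD. The groups overlap in every panel, and wt 1 stands apart for Mcl1, Bcl2 and Pmaip1.

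Transcripts of A1 were lower in most mCAT libraries than in their wt partners, a difference that did not pass correction over all genes. Bcl2a1a had a lowest, median and highest normalised count of 4212, 5291 and 7978 in mCAT libraries, against 4774, 7999 and 11105.5 in wt libraries. The highest mCAT library, mCAT 5, lay just below the wt median. Bcl2a1a was lower in mCAT in 6 of 6 pairs, but nearly tied in that of stem C2_1 (ratio of mCAT 5 to wt 5 0.997). Its means were 5739.7 ± 1388 in mCAT and 7931 ± 2139 in wt (SD, n = 7 each), with a log2 difference of -0.45 (SE 0.18, 95% interval -0.83 to -0.06, limma adjusted p = 0.878). Bcl2a1b, the most abundant copy, had 19402, 26800.4 and 34461 in mCAT, against 24037, 34848 and 39555 in wt. Only wt 2 among the wt libraries lay below the mCAT median, and Bcl2a1b was lower in mCAT in 4 of 6 pairs. Its log2 difference was -0.36 (SE 0.15, 95% interval -0.67 to -0.05, limma adjusted p = 0.878). Bcl2a1d had 7066, 10377 and 15136 in mCAT, against 9272, 13241 and 20447 in wt, and was lower in mCAT in 5 of 6 pairs. Its log2 difference was -0.38 (SE 0.19, 95% interval -0.77 to 0.02, limma adjusted p = 0.878).

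Summing the 3 genes removes the question of how reads were divided among them. The sum had a lowest, median and highest value of 35103, 38420.5 and 57574 in mCAT libraries, against 38083, 56134 and 68390 in wt libraries, and its mean in mCAT was 0.767 of that in wt. Without wt 1, the highest wt library, the ratio was 0.797. The sum was lower in mCAT in 5 of 6 pairs, the pair of stem C2_1 (mCAT 5 and wt 5) being the exception. The pair of stem C1_2 was nearly tied, at 38044 in mCAT 1 and 38083 in wt 2. The share of each copy in the sum differed little between genotypes. Bcl2a1b held 61.6 ± 4.86% in mCAT and 60.9 ± 4.63% in wt, Bcl2a1d 25.1 ± 3.68% in mCAT and 25.04 ± 3.21% in wt, and Bcl2a1a 13.3 ± 1.46% in mCAT and 14.02 ± 1.55% in wt (SD, n = 7 each). The shares differed more between libraries than between genotypes: Bcl2a1b held 70.4% in mCAT 6 and 68.9% in its partner wt 6, and 55.3% in mCAT 3 and 53.9% in wt 1. All 3 genes lie on chromosome 9, 34.9 to 35.4 Mb from Ccr2, the gene that carries the recombinase in mCAT cells (GENCODE M21, build GRCm38).

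**Figure D3:**
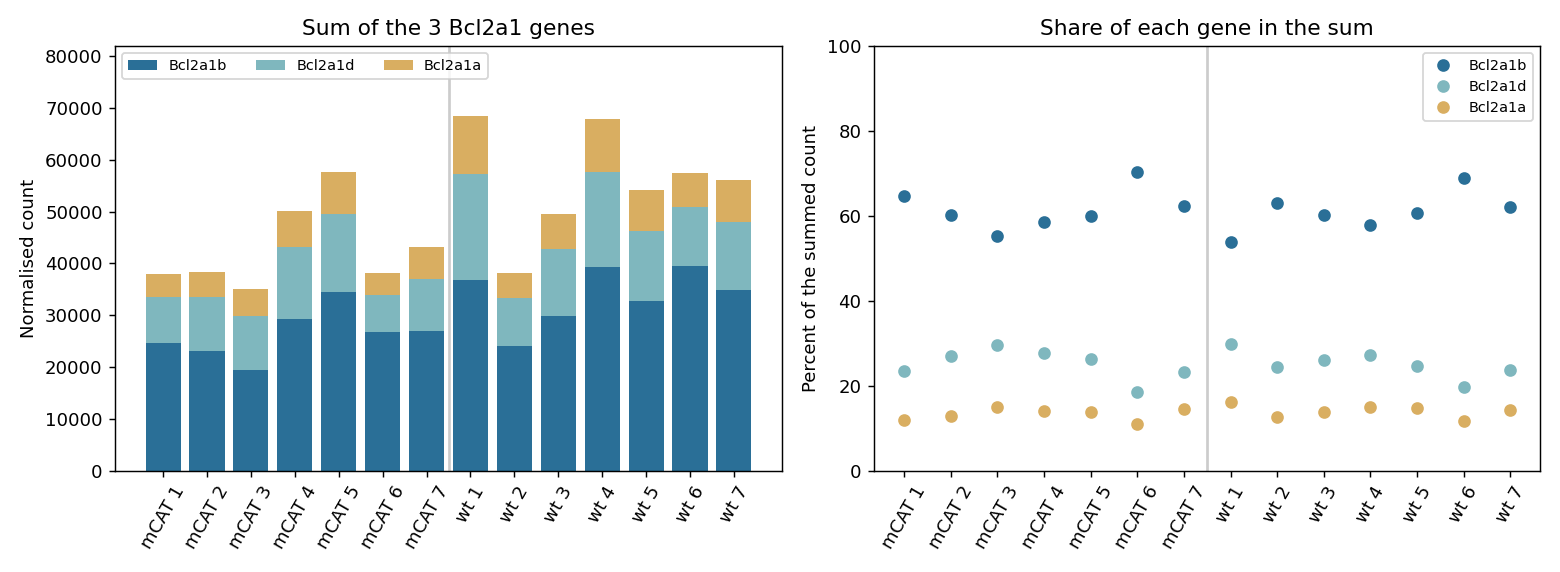
Left, summed normalised count of Bcl2a1b, Bcl2a1d and Bcl2a1a in each library, mCAT libraries before wt libraries. Right, the percentage of that sum held by each gene. The sum ranges from 35103 to 57574 in mCAT and from 38083 to 68390 in wt libraries, and Bcl2a1b holds the largest share in all 14.

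Mcl1, the guardian with the short-lived protein, did not pass the test, and 1 wt library set much of its difference. It had a lowest, median and highest normalised count of 7272, 9321 and 13221 in mCAT libraries, against 8235, 10889 and 21185 in wt libraries. The value of 21185 was that of wt 1, and the other wt libraries reached at most 11517. Mcl1 averaged 9505 ± 2068 in mCAT (SD, n = 7) and 11700 ± 4359 in wt (n = 7), or 10119 ± 1345 in wt without wt 1 (n = 6). The log2 difference was -0.26 (SE 0.19, 95% interval -0.65 to 0.14, limma adjusted p = 0.878). It was -0.11 without wt 1 and -0.13 with the block, and Mcl1 was lower in mCAT in 4 of 6 pairs.

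Bcl2l1, which encodes BCL-XL, had values above those of wt in most pairs without passing the test. It had 4224, 5166 and 8217 in mCAT, against 3019, 4707 and 8039.8 in wt. The highest library of each genotype, mCAT 4 and wt 4, share a code stem. The means were 5499.8 ± 1288 in mCAT and 4893 ± 1774 in wt (SD, n = 7 each). Bcl2l1 was higher in mCAT in 5 of 6 pairs. It was nearly tied in stems C1_2 and C1_5 (mCAT to wt ratios 1.01 and 1.02) and lower in C2_1 (0.836). Its log2 difference was 0.21 (SE 0.20, 95% interval -0.21 to 0.63, limma adjusted p = 0.893). It was 0.11 without wt 1 or without mCAT 4, 0.12 without wt 7, 0.34 without wt 4, and 0.12 with the block.

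Bcl2, the founding guardian and a survival gene of lymphocytes, was scarce and lower in mCAT in 6 of 6 pairs without passing the test. It had 68.8, 146 and 226 normalised counts in mCAT libraries, against 109, 229.7 and 868 in wt libraries. The 868 of wt 1 was 3.05-fold the next highest wt value, that of wt 7. Its means were 157 ± 54.0 in mCAT (SD, n = 7) and 308 ± 254 in wt (n = 7), or 215 ± 64.2 in wt without wt 1 (n = 6), so the mean in mCAT was 0.509 of that in wt with that library and 0.730 without it. On the scale of log2(normalised count + 1) the log2 difference over all libraries was -0.77. On the deposited scale, which compresses differences of scarce genes, it was -0.53 (SE 0.26, 95% interval -1.07 to 0.01, limma adjusted p = 0.878), and -0.30 without wt 1. With the block, in which wt 1 has no partner and does not count, it was -0.36 (SE 0.11, limma adjusted p = 0.386). Bcl2 lies on chromosome 1, 31.5 Mb from Ptprc (GENCODE M21, build GRCm38), the CD45 gene at which the donors carry different alleles.

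T cell markers differed in the same direction as Bcl2. Of 12 markers 10 were measured and 9 tested. All 9 had log2 differences below 0 (median -0.47 on the deposited scale, which compresses differences of scarce genes). None passed (limma adjusted p of 0.302 or more), and 6 of the 9 had an unadjusted p under 0.05. Their summed normalised count ran from 161 to 553 in mCAT and from 317 to 933 in wt libraries, was lower in mCAT in 6 of 6 pairs, and was highest in wt 1. Over all 14 libraries the most abundant were the kinase gene Lck (55.2 ± 29.6 in mCAT, 141 ± 63.7 in wt) and the adhesion gene Cd2 (48.4 ± 24.6 in mCAT, 101 ± 46.1 in wt; SD, n = 7 each). The costimulatory receptor gene Cd28, named after its values were seen, averaged 67.2 ± 82.6 in mCAT and 58.5 ± 35.9 in wt, with a log2 difference of -0.06. After subtraction of the genotype means, Bcl2 and the mean log2 value of the tested T cell markers had Pearson r = 0.49 over 14 libraries. For Bcl2l1 it was -0.54, the largest in size among the 10 members. Library wt 1 had the highest Bcl2 (868), the highest marker sum (933) and the lowest Bcl2l1 (3019). These correlations were not computed without it, so how far they rest on that library is not known. The part of T cell markers in the Bcl2 values was not tested. In sorted bulk RNA, fewer cells of a type and less RNA per cell cannot be told apart.

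**Figure D4:**
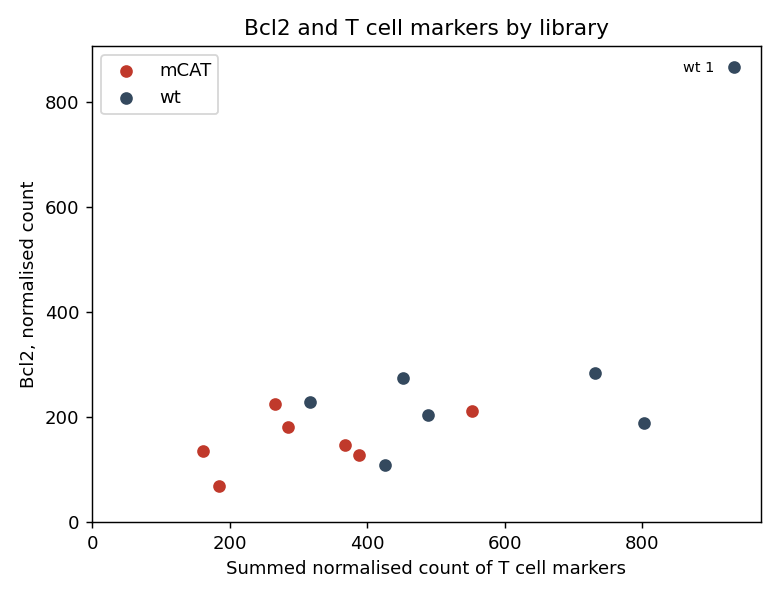
Normalised count of Bcl2 against the summed normalised count of the T cell markers, each point 1 library, mCAT in red and wt in dark blue. Library wt 1 is highest on both axes (868 and 933), and the sum runs from 161 to 553 in mCAT libraries.

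The effector Bax and the BH3-only gene Bcl2l11 showed nearly equal levels in both genotypes. Bax had 3942, 5622 and 7408.5 in mCAT, against 4009, 5674 and 7659 in wt, and was higher in mCAT in 3 of 6 pairs. Its log2 difference was -0.03 (SE 0.16, 95% interval -0.37 to 0.31, limma adjusted p = 0.984). The lowest Bax values of each genotype were those of mCAT 6, mCAT 7 and wt 7. Bcl2l11, which encodes BIM, the main trigger of death after withdrawal of growth factors, had 1279, 1692 and 2164.5 in mCAT, against 887, 1708 and 2370.5 in wt. Its log2 difference was 0.04 (SE 0.18, 95% interval -0.34 to 0.43, limma adjusted p = 0.981). The intervals leave room for differences of up to about 0.4 on the log2 scale in either direction for both genes, which these libraries cannot tell from 0.

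The other BH3-only genes, Bbc3 and Pmaip1, are p53 targets, and both had log2 differences above 0. Bbc3 had 42.0, 68.1 and 96.0 normalised counts in mCAT libraries, against 19.7, 53.5 and 84.6 in wt libraries. The lowest value was that of wt 7, the library with the lowest estimated depth, where it stands for about 7.52 reads. Bbc3 averaged 69.5 ± 18.0 in mCAT and 49.7 ± 19.8 in wt (SD, n = 7 each) and was higher in mCAT in 5 of 6 pairs. Its log2 difference on the deposited scale, which compresses differences of scarce genes, was 0.22 (SE 0.13, 95% interval -0.05 to 0.50, limma adjusted p = 0.878). With single libraries left out, the Bbc3 difference on that scale ran from 0.154 to 0.287. On the scale of log2(normalised count + 1) it was 0.54 over all libraries, wt 7 included. Pmaip1 had 4651, 5790.05 and 8394 in mCAT, against 2862, 5112 and 5898 in wt. Its highest value, in mCAT 3, and its lowest, in wt 1, both belong to libraries without a partner. The log2 difference was 0.27 (SE 0.16, 95% interval -0.06 to 0.60, limma adjusted p = 0.878). It was 0.15 without wt 1, and 0.06 (SE 0.08, limma adjusted p = 0.830) in the paired fit, in which those libraries do not count.

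**Figure D5:**
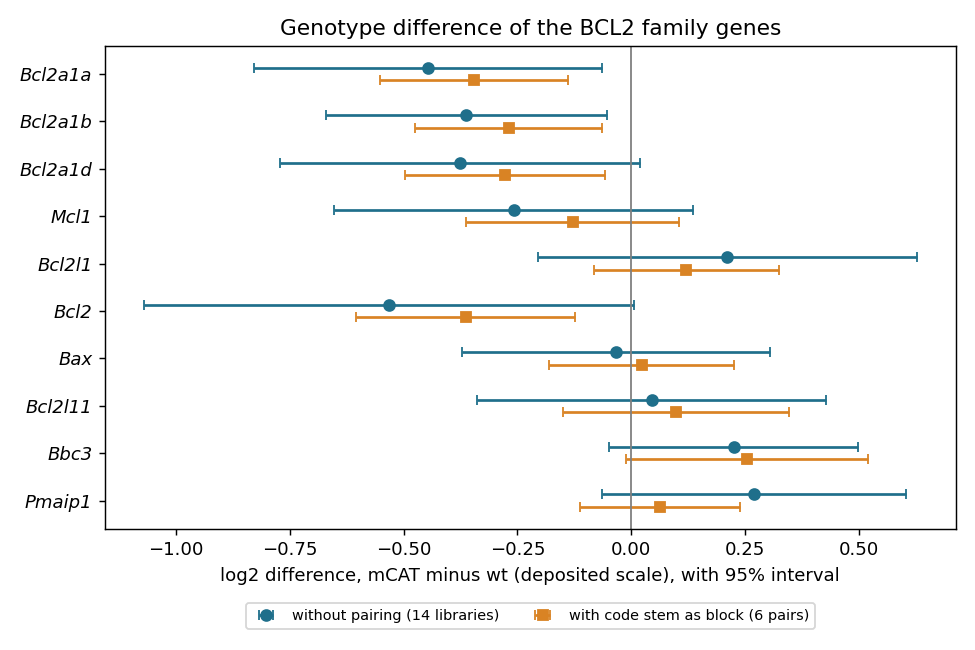
Log2 difference (mCAT minus wt, deposited scale) of each gene with its 95% interval, without pairing (circles, 14 libraries) and with the code stem as a block (squares, 6 pairs). Without pairing the intervals of Bcl2a1a and Bcl2a1b lie below 0, and with it also those of Bcl2a1d and Bcl2. No gene passed after adjustment over 12096 genes.

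Levels of the members also varied between libraries of the same genotype. Bcl2a1b ran from 19402 to 34461 in mCAT and from 24037 to 39555 in wt libraries. Over all 14 libraries, the highest and the lowest differed 2.04-fold for Bcl2a1b, 1.94-fold for Bax, 2.91-fold for Mcl1 and 12.6-fold for Bcl2. For each of these genes the lowest library was mCAT and the highest wt, so the folds include any genotype difference. The highest library was wt 1 for Mcl1 and Bcl2. After subtraction of the genotype means, Bcl2a1a and Bcl2a1d followed each other most closely over the 14 libraries (Pearson r = 0.95), while Bcl2a1b followed Bcl2a1a less closely (0.70), and these values are descriptions, since the copies share reads. Bcl2l11 ran opposite to Bcl2l1 (r = -0.64, and -0.59 without wt 1). Bcl2 and Mcl1 had r = 0.62, and 0.01 without wt 1. Of 9454 other genes with a mean of at least 100, at least 10 Mb away, Bax was followed most closely by Snrpc (r = 0.97), Mcl1 by Nlrc5 (0.96, and 0.91 without wt 1), Bcl2 by Nup153 (0.96, and 0.89 without it) and Bcl2a1d by Trappc4 (0.95), which was also among the 3 closest to Bcl2a1a. Bcl2a1b was followed most closely by Tm2d1 (0.90), Bcl2l1 by Rpl7l1 (0.94), Bcl2l11 by Frmd4b (0.92), Bbc3 by Tnip1 (0.86) and Pmaip1 by Rnf181 (0.80, and 0.57 without wt 1). Libraries share depth and scaling, which these correlations include.

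Of 18 further BCL2 family genes, 12 were measured well enough to test and none passed (median log2 difference -0.05, against -0.00 over all genes tested). Bcl2l2, which encodes the guardian BCL-W, was scarce (126 ± 23.9 in mCAT, 189 ± 64.4 in wt; SD, n = 7 each) and lower in mCAT in 6 of 6 pairs (log2 difference -0.34, SE 0.14, limma adjusted p = 0.878). The BH3-only gene Bmf averaged 285 ± 162 in mCAT and 176 ± 111 in wt (log2 difference 0.49, SE 0.25, limma adjusted p = 0.878). Without mCAT 1, its highest library, the Bmf difference was 0.32. Bcl2a1c, the remaining A1 copy, Bok, Bik, Hrk and Bcl2l15 did not reach the filter, and Bcl2l10 was not analysed here.

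Among 21 genes of the caspase cascade and mitochondrial death factors, none passed (median log2 difference -0.01). Xiap, which encodes an inhibitor of caspases, averaged 1117 ± 243 in mCAT and 864 ± 101 in wt, and Casp9, the initiator caspase gene of the mitochondrial pathway, 1205 ± 159 in mCAT and 958 ± 234 in wt (SD, n = 7 each; log2 differences 0.31 and 0.32, limma adjusted p = 0.878 for both). Each was higher in mCAT in 5 of 6 pairs. None of 14 tested genes of death receptors and necroptosis passed (median 0.09). Their smallest unadjusted p-values were those of the TNF receptor gene Tnfrsf1b (19088 ± 4874 in mCAT, 13876 ± 3065 in wt) and the death receptor gene Tnfrsf21 (4018 ± 788 in mCAT, 2931 ± 798 in wt), with log2 differences of 0.46 and 0.48 (limma adjusted p = 0.878 for both). Without wt 1 that of Tnfrsf21 was 0.30.

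Among 14 tested genes of the p53 pathway 1 passed, and it was lower in mCAT. Btg2, an antiproliferative gene, averaged 49817 ± 6158 in mCAT and 87072 ± 16155 in wt (SD, n = 7 each; log2 difference -0.79, SE 0.14, limma adjusted p = 0.0224). The groups of Btg2 did not overlap, it was lower in mCAT in all pairs, and with the block its log2 difference was -0.85 (SE 0.08, limma adjusted p = 5.02e-05). Without pairing, its call was lost when any of 8 libraries was left out (adjusted p from 0.0585 without mCAT 6 to 0.0754 without wt 3, the other 6 being mCAT 1, mCAT 5, mCAT 7, wt 2, wt 4 and wt 5), while the Btg2 log2 difference stayed between -0.87 and -0.74 whichever library was left out. The median of the list was 0.12, with 10 of 14 above 0. Phlda3 averaged 59.9 ± 16.3 in mCAT and 24.6 ± 12.5 in wt, a ratio of means of 2.43. Its log2 difference on the deposited scale, which compresses differences of scarce genes, was 0.48 (SE 0.12, limma adjusted p = 0.377). Btg2 lies 3.99 Mb and Phlda3 2.30 Mb from Ptprc on chromosome 1 (GENCODE M21, build GRCm38), so for both genes the mCAT alleles and the donors' different alleles around Ptprc cannot be told apart.

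None of 10 tested inducers of BH3-only genes and regulators of MCL1 turnover passed (median 0.04). Gsk3b, whose kinase marks MCL1 for degradation, averaged 2590.4 ± 277 in mCAT and 2229.7 ± 391 in wt, and Foxo1 185 ± 28.8 in mCAT and 163 ± 50.7 in wt (SD, n = 7 each; limma adjusted p of 0.878 and 0.896). The Foxo1 difference was 0.14, and 0.06 without wt 5. All 8 receptor genes of myeloid survival cytokines had log2 differences above 0 (median 0.27), and none passed. The receptor subunit gene Csf2rb2 averaged 7722 ± 485 in mCAT and 5273 ± 1723 in wt (log2 difference 0.60, SE 0.17, limma adjusted p = 0.566). Csf1r, the receptor gene for the growth factor on which macrophages depend, averaged 65115 ± 10783 in mCAT and 45840.4 ± 12640 in wt (log2 difference 0.54, SE 0.18, limma adjusted p = 0.878). Markers of other cells that the sort could hold had no call without pairing. Summed counts ran from 1798 to 8916 in mCAT and 1825 to 5165 in wt for neutrophils (Mpo at 0 in 7 or more libraries), and from 1733 to 5699.6 in mCAT and 1460.2 to 4465 in wt for B cells (Pax5 likewise). They ran from 0 to 87.6 in mCAT and 27.6 to 213 in wt for natural killer cells (Ncr1 and Klre1 likewise), and from 421 to 1554 in mCAT and 650.3 to 1462 in wt for dendritic cells. For microglia they ran from 28060 to 81717 in mCAT and 17600 to 80672 in wt, and for neural and endothelial cells from 1999.8 to 4819.8 in mCAT and 1615 to 6652 in wt. Their part in the values of the members was not tested.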

How the data were processed

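RNA was measured in 7 mCAT and 7 wt libraries. Per the submitters' processing notes the authors used FastQC, fastp, Salmon and build GRCm39, with no versions stated. The deposited file is titled as raw counts, yet holds log2 values, since none is whole and the lowest is identical in all 14 libraries, the form that variance stabilisation of scaled counts gives. Undoing that transformation's closed form, with its constant taken from the lowest value, gave the normalised count. Log2 differences are on the deposited scale, which compresses those of scarce genes, unless another setting or scale is named. The reads behind 1 normalised count were estimated roughly from the most frequent low values, and 58.4% to 74.6% of these lay within 0.15 of a whole number (chance gives 30%), so whole reads were not recovered. Intervals and depth cover these libraries only: nothing states separate hosts for each library, and p-values measure the spread between libraries.

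Genes with a normalised count of at least 10 in at least 7 libraries were tested (12096 of 19940) with limma 3.58.1 in R 4.3.3 on the deposited log2 values, with mean-variance trend and robust moderation (statmod 1.5.0), without pairing, Benjamini-Hochberg adjustment over all genes tested and a threshold of 0.05. Same-stem libraries correlated in their deviations from the group means at 0.232 to 0.659 in all 6 pairs. The stem was used as a block. Title numbers correlated from -0.294 and were not taken to pair libraries. Those numbered 4 to 7 are also same-stem pairs, and mCAT 3 and wt 3, of different stems, reached 0.252. Libraries of different stems were not otherwise compared, so these correlations do not settle the pairing. The pairing comes from the library codes. The code was tested on simulated data. Members, gene lists and tests were chosen with earlier results of these data known. Genes named from a list are those called in either fit and the 2 with the smallest p; of marker lists, the 2 most abundant over all libraries; as similar genes, the 3 with the highest Pearson correlation, at least 10 Mb away. Promoters came from RefSeq and transcripts and exon lengths from GENCODE M21, both on GRCm38, whereas the authors' build was GRCm39. No column of any other sample was present.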

Additional observations from a re-analysis of the deposited data

Results flagged for a closer look

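Dixon's gap over the range was taken on normalised counts in 44 groups of 7 libraries (22 genes, 2 genotypes). In 8 groups the highest or lowest library exceeded its 95% critical value of 0.568. Chance gives about 1 in 20 for independent, normally distributed values. The groups share libraries, and genes other than the members were picked by their p in these data. That rate is therefore only a rough guide here. Library wt 1 accounts for 5 of the 8. Its normalised counts were 21185 for Mcl1 (8235 to 11517 in the other wt libraries), 867.8 for Bcl2 (109 to 284), 2862 for Pmaip1 (4608 to 5898), 7294 for Tnfrsf1b (13798 to 16184) and 1262 for Tnfrsf21 (2717 to 3648). In mCAT 4, Bcl2l1 reached 8217 (4224 to 5765 in the other mCAT libraries). In mCAT 1, Bmf reached 622.9 (167 to 317), and in mCAT 5 Gsk3b was at 2044 (2495 to 2837).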

How the results depend on the processing

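Over 35 other settings (29 planned and 6 added after seeing the data, which left out each pair from the paired fit) none of the 350 member values passed, and 8 members kept their direction in all. The smallest adjusted p was 0.130, for Bcl2a1a in the paired fit without stem C2_1. Over all settings the Bcl2a1a log2 difference ran from -0.56 to -0.29 and its adjusted p up to 0.999948 (within C2). The exceptions, Bax and Bcl2l11, lay near 0, and the cause of their turns was not tested. The Bax log2 difference was 0.0235 with the replicate block on the code stem and without wt 1 and mCAT 3, 0.000255 within C2, 0.00219 without libraries 6 and 7, and 0.0308, 0.0376 and 0.110 in the block without stems C1_2, C1_5 and C2_2; leaving out single libraries gave -0.12 to 0.0515. The Bcl2l11 log2 difference was -0.0538 within C1 and -0.0829 to 0.13 with single libraries left out. The genotype difference was not found to depend on code series, C1 or C2, for any member (limma interaction adjusted p = 0.99996 for all; 0 of all genes, 103 at an unadjusted p under 0.05). Of all genes, 24 were called, against 39 with the replicate block, 37 in it without C2_1, 15 within C1, 9 within C2, and 18 to 25 with single libraries left out. The p53 count was 1, and 0 within C1, within C2 and in 8 of 14 cases with a library left out (0 to 1). The replicate block on the title number changed no member's call. Depth limits Bbc3, which rests on about 7.52 reads in wt 7 and 39.3 to 116 in the other libraries.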

Other observations

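The ratio of the scarce guardian transcript Bcl2 to the abundant Mcl1, taken within each library so that scaling cancels, was 1.70 ± 0.70% in mCAT and 2.46 ± 1.04% in wt (normalised counts, SD, n = 7 each), and lower in mCAT in 6 of 6 pairs. It was chosen after the values were seen and was not tested. Without wt 1, which had the highest ratio (4.10%), the mean in mCAT was 0.779 of that in wt, against 0.692 with it.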
